A study of Rattus norvegicus with 21 samples.

Results

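The 10 genes Ccnd1, Ccnd2, Ccnd3, Cdk4, Cdk6, Ccne1, Cdkn1b, Cdkn2c, Rb1 and E2f1 encode the core of the switch that takes a cell from G1 into DNA replication. They were taken by gene symbol from the mRNA table, which holds 32750 genes in 9 libraries. Each of the 10 matched 1 row, and all 10 passed the filter on low values that left 14410 genes for testing. The cells were INS-1 832/13, an insulin-secreting clone of a rat insulinoma line that carries a human insulin transgene. One group (4 libraries) was left untreated, and the other (5 libraries) was kept with 1 µM inorganic arsenic (iAs) for 24 h. Both groups were seeded in 12-well plates 24 h before exposure, and the labels name no vehicle. Nothing in them says that replicates came from different cultures. The p-values therefore reflect only how far these libraries differ, part of which may be technical.

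In G1, D-type cyclins bind the kinases CDK4 and CDK6 and start the phosphorylation of the retinoblastoma protein RB, which releases E2F transcription factors. E2F then drives cyclin E and the replication genes, and cyclin E with CDK2 completes the phosphorylation of RB. The inhibitors p18 (Cdkn2c) and p27 (Cdkn1b) restrain these kinases. Rodent beta cells rely on cyclin D2 and CDK4 for their growth after birth.

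Column totals ran from 51009800 to 55869200 normalized counts, worth about 44627200 to 65748400 reads. The submitters' labels also give liver as the tissue. Of 7 hepatocyte markers, Cyp7a1 was listed at 0 in all 9 libraries and Alb in 8 of 9, and 3 were tested. Fgb, a fibrinogen chain gene, was at 637 ± 97.4 (untreated, SD, n = 4) against 252 ± 39.5 normalized counts (iAs, SD, n = 5), and the antitrypsin gene Serpina1 at 391 ± 92.7 against 274 ± 107. Apoa1 was at 11.9 ± 2.50 against 13.7 ± 5.29. Beta cell markers were abundant, with a summed level of 2426410 to 2795460 normalized counts in the untreated group and 2193020 to 2667310 in the iAs group. Hmox1, a heme-degrading enzyme gene known for its induction by arsenic, went against the treatment labels, at 14132 ± 1727 normalized counts (untreated, SD, n = 4) against 1739 ± 465 (iAs, SD, n = 5). Mt1, a metallothionein gene that arsenic also induces, was at 3671 ± 1312 (untreated, SD, n = 4) against 887 ± 249 (iAs, SD, n = 5). Of 5 oxidant response genes tested as a label check, Hmox1 and Mt1 among them, 4 were called lower and 0 higher. Of all genes tested, 14.9% were called lower. Gclm was at 3595 ± 254 (untreated, SD, n = 4) against 1728 ± 105 (iAs, SD, n = 5), and Nqo1 at 1233 ± 202 against 583 ± 36.9. Txnrd1 was not called, at 11388 ± 801 against 11278 ± 508. Every direction below rests on these labels. Sequencing lane and group cannot be told apart, since each group had a lane of its own (3 for untreated, 4 for iAs). The library codes have 3 endings, which split the libraries into 3 sets with both groups in each. Set A holds untreated replicates 1 and 3 and iAs replicates 1, 4 and 5, set B untreated 2 and iAs 3, and set C untreated 4 and iAs 2. What the endings stand for is not given in the labels. Differences within a set are given as values with no test, as sets B and C have 1 library per group, and calls within set A alone come from a fit of its 5 libraries.

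Ccnd2, Ccne1, E2f1 and Rb1 rose and Ccnd3 fell in the libraries labelled iAs. Ccnd2 was 1.46-fold higher, Ccne1 1.38-fold, E2f1 1.25-fold and Rb1 1.21-fold, while Ccnd3 stood at 0.847 of its untreated level. Ccnd1, Cdk4, Cdk6, Cdkn1b and Cdkn2c did not pass the test. The 5 called of 10 genes stand against 30.0% called of all 14410 genes tested (limma, adjusted p under 0.05). The 4 rises stand against 15.1% and the 1 fall against 14.9%. The 10 genes and the lists below were chosen with earlier results of these data known. Their shares against all genes tested are therefore no unbiased comparison. The median log2 difference (iAs minus untreated) was 0.15 over the 10 genes and 0.00 over all genes tested. The number called was 3 with a replicate block, 3 within set A alone, and 3 without iAs replicate 1 or iAs replicate 3. It was 7 with the code ending as a block, 7 with array weights and 6 with quantile normalization. The 2 genes that both of the former settings added were Ccnd1 and Cdkn1b.

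**Figure D1:**
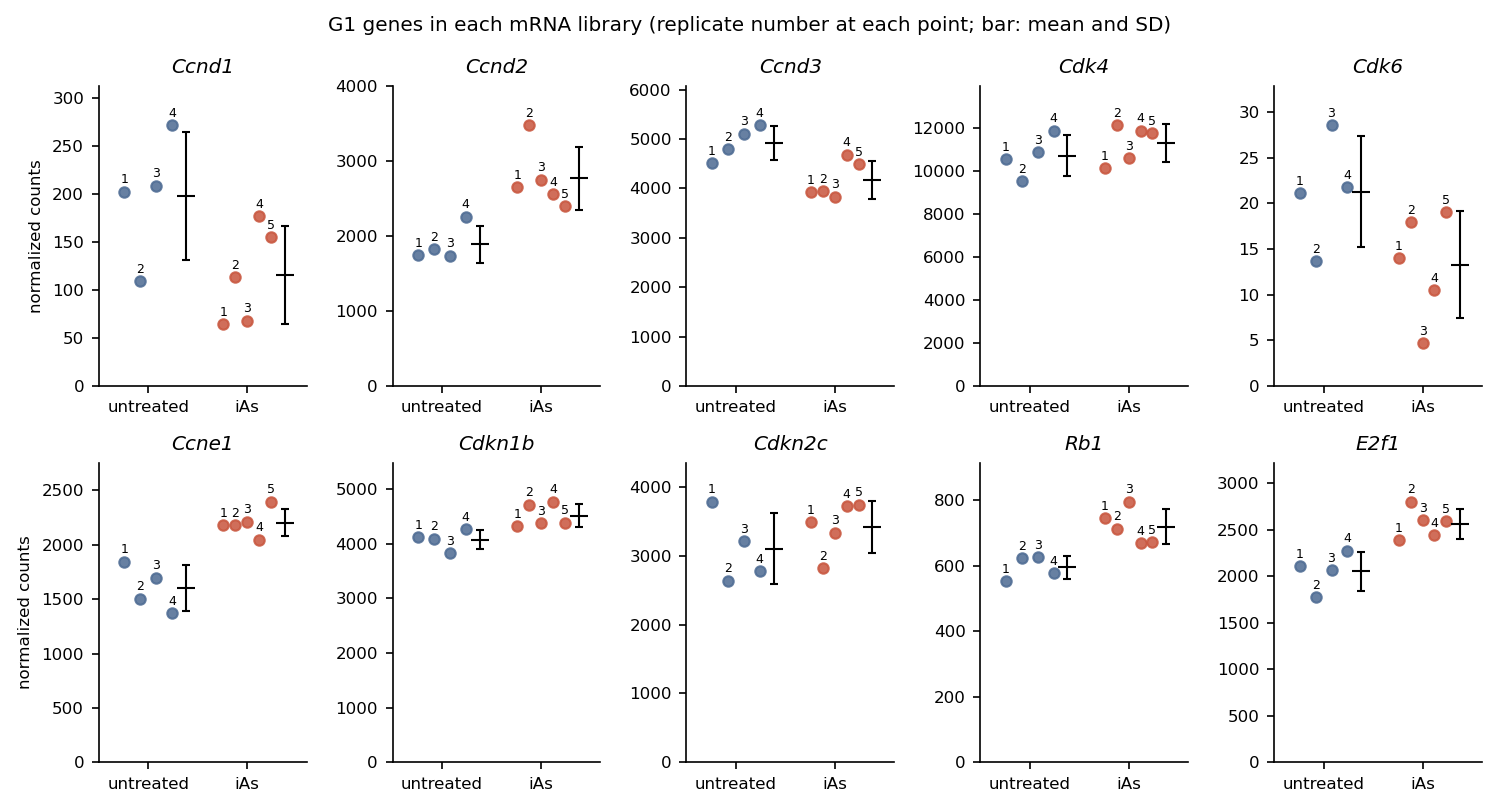
Normalized counts (vertical axes, from 0) of the 10 G1 genes in the 4 untreated libraries (blue) and the 5 iAs libraries (red), with replicate numbers at the points and bars for the mean and SD. Ccnd2, Ccne1, E2f1, Rb1 and Cdkn1b show no overlap between the groups, whereas the points of the other 5 genes overlap. Of all genes tested, 25.9% show no overlap.

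Promoter windows of RefSeq (build GRCr8, 250 bases before to 50 after 1 annotated start) were found for 6 of the 10 genes. Those of Ccne1, Rb1, Ccnd3 and Cdk4 are shown because Ccne1 and Rb1 rose, Ccnd3 fell and Cdk4 was not called, so they span the responses. Capitals mark GGGCGG (the SP1 motif, either strand) in each, TTTNNCGC (the E2F motif) in Rb1 and CACGTG (the E-box bound by MYC) in Cdk4.
Ccne1, chr1:99927860-99928159, minus strand: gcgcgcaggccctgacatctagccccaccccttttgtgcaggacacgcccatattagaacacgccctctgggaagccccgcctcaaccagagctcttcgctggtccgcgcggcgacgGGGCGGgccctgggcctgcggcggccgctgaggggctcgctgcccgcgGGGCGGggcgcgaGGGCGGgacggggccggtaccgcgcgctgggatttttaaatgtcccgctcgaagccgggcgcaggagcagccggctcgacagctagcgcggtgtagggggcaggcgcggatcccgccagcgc
Rb1, chr15:54911808-54912107, minus strand: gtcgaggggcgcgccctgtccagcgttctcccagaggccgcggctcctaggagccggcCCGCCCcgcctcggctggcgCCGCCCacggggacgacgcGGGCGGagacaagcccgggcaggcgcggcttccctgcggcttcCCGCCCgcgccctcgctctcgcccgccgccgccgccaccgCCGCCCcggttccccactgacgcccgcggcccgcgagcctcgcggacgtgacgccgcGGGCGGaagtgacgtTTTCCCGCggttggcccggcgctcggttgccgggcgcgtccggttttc
Ccnd3, chr9:20897826-20898125, minus strand: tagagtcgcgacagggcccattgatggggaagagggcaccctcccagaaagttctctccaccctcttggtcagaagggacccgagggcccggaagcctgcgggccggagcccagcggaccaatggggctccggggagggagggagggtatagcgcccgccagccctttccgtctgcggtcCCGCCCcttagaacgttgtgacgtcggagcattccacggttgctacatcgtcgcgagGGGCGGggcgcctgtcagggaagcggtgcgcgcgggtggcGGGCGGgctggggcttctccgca
Cdk4, chr7:64771203-64771502, plus strand: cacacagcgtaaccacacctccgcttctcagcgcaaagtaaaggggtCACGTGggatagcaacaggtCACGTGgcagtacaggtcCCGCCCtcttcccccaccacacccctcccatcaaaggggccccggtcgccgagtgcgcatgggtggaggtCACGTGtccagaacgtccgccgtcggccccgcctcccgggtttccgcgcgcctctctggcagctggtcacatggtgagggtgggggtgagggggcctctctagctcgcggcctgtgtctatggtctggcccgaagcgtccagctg

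GGGCGG was found in all 6 windows, 6 times in Rb1, 3 times each in Ccne1 and Ccnd3, and once each in Cdk4, Cdkn1b and Cdkn2c. Of all 33469 promoter windows 33.1% hold it. The 6 windows are rich in G and C, at 64.7% to 79.7% against a median of 51.7% over all windows. The E2F letters were found only in Rb1 among the 6, at base 3 after the start, and in 4.92% of all windows. CACGTG was found in Cdk4 alone, at bases -203, -183 and -95 from the start, and in 6.42% of all windows. TGACNNNGC, the core of the NRF2 element, was found in Rb1 (base -22) and Cdkn1b (base -115), and in 12.1% of all windows. Neither the cyclic AMP element TGACGTCA (1.83% of all windows) nor TTTGAA, the CHR element of cell cycle genes (18.3%), was found in these 6. The motifs do not overlap one another in these windows. A match describes letters in this window and is not shown to be a bound site. A missing match, such as that of the E2F letters in Ccne1, does not show that a gene lacks such a site.

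Of the 3 D-type cyclin genes Ccnd2 rose, Ccnd3 fell and Ccnd1 did not pass the test. Ccnd2 (ENSRNOG00000057710), which encodes cyclin D2, had 1745, 1823, 1739 and 2257 normalized counts in untreated replicates 1 to 4. In iAs replicates 1 to 5 it had 2653, 3482, 2751, 2564 and 2402. All iAs libraries lay above all untreated ones, and the highest library of each group was the one in set C. The log2 difference was 0.55 (SE 0.11, limma adjusted p = 0.0028, 95% interval 0.31 to 0.78). Within sets A, B and C it was 0.54, 0.59 and 0.62. The call held in all 21 other settings.

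Ccnd3 (ENSRNOG00000050258), which encodes cyclin D3, had 4513, 4788, 5107 and 5281 normalized counts in untreated replicates 1 to 4. The iAs replicates 1 to 5 had 3925, 3950, 3835, 4684 and 4485. The groups overlapped through iAs replicate 4, which lay above untreated replicate 1. The difference came to -0.24 in log2 (SE 0.07, limma adjusted p = 0.027), and -0.14, -0.32 and -0.42 within sets A, B and C. The call was lost in 7 of 21 other settings, among them without untreated replicate 3 or 4 and without iAs replicate 1, 2 or 3.

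Ccnd1 (ENSRNOG00000020918), which encodes cyclin D1, a cyclin induced by growth factor signals, was with Cdk6 the most variable of the 10 between libraries. Its normalized counts were 203, 109, 209 and 272 in untreated replicates 1 to 4 and 64.4, 113, 68.1, 177 and 155 in iAs replicates 1 to 5. Untreated replicate 2 lay inside the iAs range, and iAs replicates 2, 4 and 5 lay above it. The coefficient of variation of Ccnd1 was 33.8% in the untreated and 43.7% in the iAs group. It was 28.7% and 44.2% for Cdk6, and 4.47% and 4.69% for Cdkn1b. The log2 difference was -0.82 (SE 0.34, limma adjusted p = 0.089, 95% interval -1.55 to -0.08), with -0.76, -0.68 and -1.25 within sets A, B and C. It passed the threshold in 4 of 21 other settings, namely with the code ending as a block (limma adjusted p = 0.0283), with array weights (adjusted p = 0.0312), without untreated replicate 2 (adjusted p = 0.0304) and without iAs replicate 4 (adjusted p = 0.0445).

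A single scaling factor per library cancels in a ratio of 2 genes. The log2 ratio of Ccnd3 to Ccnd2 was 1.37, 1.39, 1.55 and 1.23 in untreated replicates 1 to 4 and 0.56, 0.18, 0.48, 0.87 and 0.90 in iAs replicates 1 to 5. The ratio was lower in every iAs library than in any untreated one, by 0.79 in the mean. For Ccnd1 to Ccnd2 the mean ratio was lower by 1.36, from -3.31 ± 0.49 (SD, n = 4) to -4.68 ± 0.73 (SD, n = 5), and the groups overlapped through untreated replicate 2 at -4.04. These values describe unequal change among the cyclins and were not tested. They do not compare the levels of the cyclins, since transcript lengths were not used here.

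**Figure D2:**
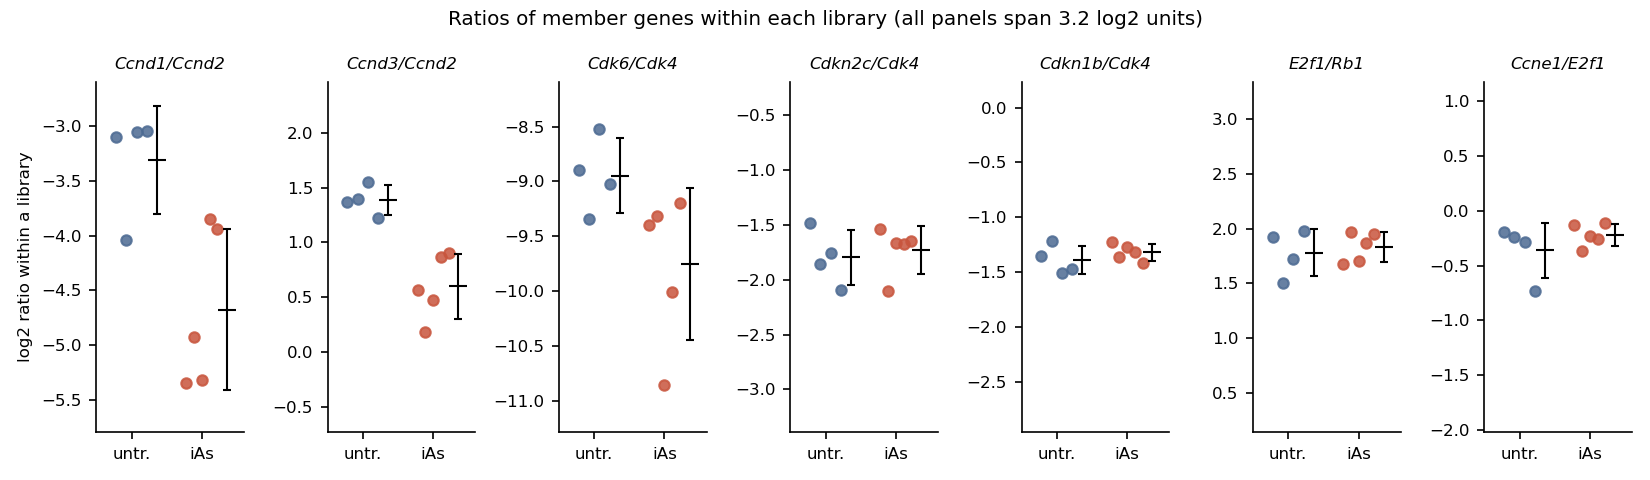
Log2 ratio of 2 G1 genes within each library (vertical axes, each spanning an equal range), for untreated (blue) and iAs libraries (red), with bars for the mean and SD. Ccnd3/Ccnd2 is the only one of the 7 ratios shown without overlap between the groups.

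The kinase genes were not called. Cdk4 (ENSRNOG00000025602), the main G1 kinase of rodent beta cells, had 10541, 9521, 10872 and 11855 normalized counts in untreated replicates 1 to 4 and 10118, 12115, 10571, 11850 and 11741 in iAs replicates 1 to 5. The ranges overlapped almost fully. The log2 difference was 0.08 with a 95% interval of -0.08 to 0.24 (limma adjusted p = 0.46), so a rise of more than 1.18-fold or a fall below 0.944 of the untreated level lies outside that interval. Cdk6 (ENSRNOG00000009258), the partner kinase of CDK4, was barely detected, at 13.6 to 28.6 normalized counts in the untreated group and 4.70 to 19.1 in the iAs group. That is about 4.00 to 35.1 reads per library. Its log2 difference was -0.73, with a wide 95% interval of -1.69 to 0.23 (limma adjusted p = 0.24).

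Ccne1 (ENSRNOG00000014786), which encodes cyclin E1 and is a classical E2F target, had the smallest adjusted p of the 10. In normalized counts it had 1843, 1503, 1696 and 1371 in untreated replicates 1 to 4 and 2177, 2176, 2212, 2045 and 2395 in iAs replicates 1 to 5. The lowest iAs library stood above the highest untreated one. The log2 difference was 0.46 (SE 0.09, limma adjusted p = 0.0017, 95% interval 0.28 to 0.65), and it was 0.32, 0.56 and 0.67 within sets A, B and C. This call also held in all 21 other settings. Ccne2, which encodes the second cyclin E, differed by 0.01 in log2 (95% interval -0.17 to 0.19, limma adjusted p = 0.94), with the opposite sign in 4 of 21 other settings.

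Neither inhibitor gene was called. Cdkn1b (ENSRNOG00000007249), which encodes p27, had 4118, 4091, 3829 and 4266 normalized counts in untreated replicates 1 to 4 and 4325, 4716, 4369, 4769 and 4384 in iAs replicates 1 to 5. The groups did not overlap, as in 25.9% of all genes tested, but the difference was small. It came to 0.15 in log2 (SE 0.05, 95% interval 0.03 to 0.26, limma adjusted p = 0.056), and passed the threshold in 4 of 21 other settings. These were the code ending as a block (limma adjusted p = 0.0335), array weights (adjusted p = 0.015), quantile normalization (adjusted p = 0.0369) and leaving out untreated replicate 4 (adjusted p = 0.0442). Cdkn2c (ENSRNOG00000008956), which encodes the CDK4 and CDK6 inhibitor p18, ranged from 2634 to 3783 normalized counts in the untreated and from 2814 to 3738 in the iAs group, a log2 difference of 0.15 (95% interval -0.09 to 0.39, limma adjusted p = 0.34). The log2 ratios of Cdkn1b and Cdkn2c to Cdk4 differed between the groups by 0.07 each, with overlap.

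E2f1 and Rb1 rose by similar amounts. E2f1 (ENSRNOG00000016708), which encodes the activating transcription factor that RB holds in check, had 2105, 1773, 2065 and 2273 normalized counts in untreated replicates 1 to 4 and 2387, 2801, 2603, 2442 and 2593 in iAs replicates 1 to 5. Every iAs library was above every untreated one. Its log2 difference was 0.32 (SE 0.08, limma adjusted p = 0.0073), with 0.25, 0.55 and 0.30 within sets A, B and C, and adjusted p = 0.058 with a replicate block.

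Rb1 (ENSRNOG00000016029), which encodes RB itself, had 553, 624, 627 and 577 normalized counts in untreated replicates 1 to 4 and 745, 714, 796, 669 and 672 in iAs replicates 1 to 5. These groups did not overlap either. On the log2 scale Rb1 was higher by 0.27 (SE 0.08, limma adjusted p = 0.026), with 0.24, 0.35 and 0.31 within sets A, B and C. The call was lost in 7 of 21 other settings, including without untreated replicate 1 or 4 and without iAs replicate 1 or 3, with equal totals (adjusted p = 0.071) and with a replicate block (adjusted p = 0.071). The log2 ratio of E2f1 to Rb1 was 1.78 ± 0.22 (SD, n = 4) in untreated and 1.83 ± 0.13 (SD, n = 5) in iAs libraries.

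**Figure D3:**
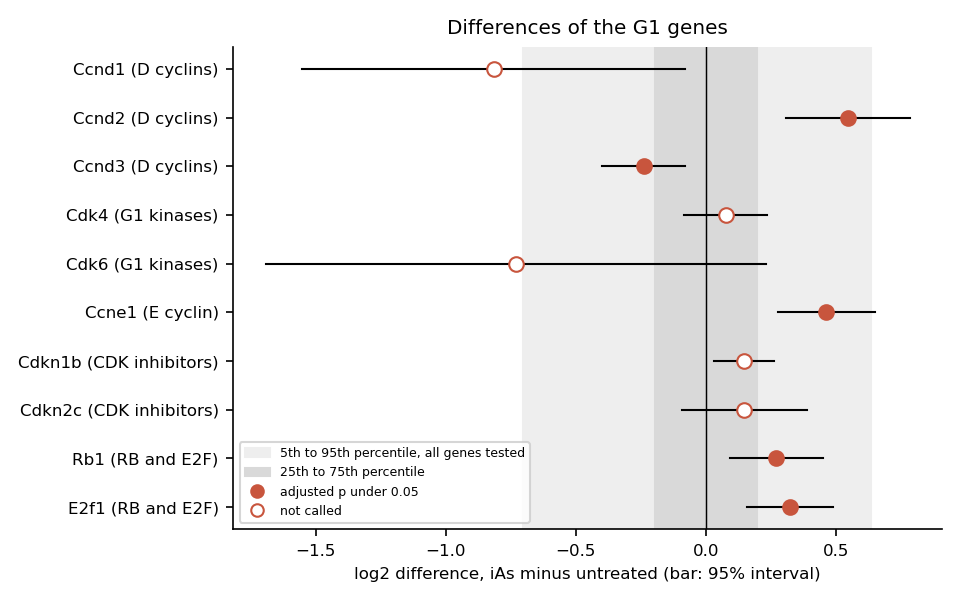
Log2 difference between iAs and untreated libraries (horizontal axis) for each of the 10 genes, with its 95% interval, filled where limma's adjusted p was under 0.05. Grey bands span the 5th to 95th and the 25th to 75th percentile of all 14410 genes tested; Ccnd2 and Ccne1 lie above the 75th percentile of 0.20 with their whole interval.

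Other genes of the same switch were read from lists by role. Among 7 other cyclin and kinase genes tested 1 rose, Ccna2, which encodes the S phase cyclin A2 (log2 difference 0.32, limma adjusted p = 0.0030), and 0 fell. Mnat1, next on this list by adjusted p, was at -0.19 (limma adjusted p = 0.076), and passed with equal totals (adjusted p = 0.0278). Cdk2, the kinase partner of cyclin E, was at 0.20 (adjusted p = 0.16), and passed without iAs replicate 2 (adjusted p = 0.0181) and with the code ending as a block (adjusted p = 0.0412). Among pocket proteins and E2F or DP factors 2 of 11 rose and 1 fell. Those that rose were Tfdp1, the DNA-binding partner of E2F (0.33, adjusted p = 2.0e-04), and E2f2 (0.34, adjusted p = 0.0028). The one that fell was Rbl2, which encodes the RB relative p130 (-0.25, adjusted p = 0.034), and it lost its call in 8 of 21 other settings. Rbl1 differed by 0.20 (adjusted p = 0.11) and E2f4, a repressive E2F, by -0.04 (adjusted p = 0.63). The list medians were 0.01 and 0.12, and the shares called, 14.3% and 27.3%, were below the 30.0% of all genes tested.

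Of 5 matched genes listed as other CDK inhibitors, only 2 were tested, Cdkn1a and Cdkn3, and 0 were called. Cdkn1a, which encodes the p53-induced inhibitor p21, had 1235 ± 126 normalized counts (SD, n = 4) in untreated and 1196 ± 148 (SD, n = 5) in iAs libraries (limma adjusted p = 0.75). Cdkn3 differed by 0.15 in log2 (limma adjusted p = 0.14). Cdkn2a and Cdkn2b, which encode the inhibitors p16 and p15, were listed at 0 in all 9 libraries, and Cdkn1c, which encodes p57, in 8 of 9.

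Among 12 genes of G1 cyclin and p27 turnover 1 rose and 4 fell (median 0.05), 41.7% called against 30.0% of all genes tested. Cks1b, a cofactor of p27 degradation, rose by 0.35 in log2 (limma adjusted p = 0.0049), and its partner Skp2 was at 0.15 (adjusted p = 0.19). Fbxo4, an F-box gene linked to cyclin D1 degradation, fell, with 346 ± 36.1 normalized counts in untreated (SD, n = 4) and 199.6 ± 48.1 in iAs libraries (SD, n = 5; log2 difference -0.82, SE 0.17, limma adjusted p = 0.0034). The other falls were Ambra1, a ligase adaptor for D-type cyclins (-0.19), Btrc (-0.18) and the ligase subunit Skp1 (-0.18), named because they complete the count. Skp1 lost its call in 10 of 21 other settings, with adjusted p up to 0.115 (without untreated replicate 1). With a replicate block this list had 1 rise and 1 fall.

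Of 8 genes listed around the DREAM and MuvB complexes, 2 rose and 3 fell (median -0.08), 62.5% called against 30.0% of all genes tested. The list mixes complex subunits with partner and regulator genes, so its counts describe no single function. Lin37 (-0.38) and Lin54 (-0.24) fell, as did the kinase gene Dyrk1a (-0.17), while Mybl2 (0.34) and Rbbp4 (0.25) rose. The cell cycle transcription factor gene Foxm1 was not called (limma adjusted p = 0.97). The count of 5 was 3 without untreated replicate 2, 3 or 4 and without iAs replicate 1 or 3. Dyrk1a kept its call in 9 of 21 other settings and Mybl2 in 12 of 21.

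Among 17 upstream regulators 1 rose and 4 fell (median 0.00), 29.4% called against 30.0% of all genes tested. Myc, the growth factor-responsive transcription factor gene, rose. It stood at 3486 ± 1272 normalized counts in untreated (SD, n = 4) and 8223 ± 1919 in iAs libraries (SD, n = 5), which is 1.27 higher in log2 (SE 0.20, limma adjusted p = 6.8e-04). The insulin receptor substrate gene Irs2 fell by 0.37 in log2. Igf1r (-0.57), Stat5a (-0.44) and Prlr, the prolactin receptor gene (-0.34), fell as well. The Igf1r call held in 21 of 21 other settings, whereas Prlr lost its call in 6, with adjusted p up to 0.0679 (without untreated replicate 2). Men1, which encodes menin, a known activator of Cdkn1b and Cdkn2c in islets, was at -0.04 and Ezh2 at 0.07, neither called.

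Of all genes tested, 15.1% rose and 14.9% fell. Of 34 E2F target genes 9 rose and 0 fell, 26.5% called against 30.0% of all genes tested, with a median of 0.12 against 0.00. Mcm7, a subunit of the replication helicase, had the largest difference among them. It stood at 6603 ± 612 normalized counts in untreated (SD, n = 4) and 12386 ± 905 in iAs libraries (SD, n = 5), a difference of 0.91 in log2 (limma adjusted p = 7.7e-06). Of the other helicase subunit genes on the list, Mcm6 (0.26) and Mcm3 (0.20) also rose, and Mcm2 (0.05), Mcm4 (0.01) and Mcm5 (-0.01) did not pass the test. Pola1, the catalytic subunit of polymerase alpha, rose by 0.50. Within set A alone, 3 of the 34 rose and 1 fell, and with equal totals 6 rose and 2 fell. Among 9 mitotic genes 4 rose and 0 fell (median 0.16), 44.4% called against 30.0% of all genes tested. Those that rose were Top2a (0.37), Bub1 (0.41), Ccnb1 (0.32) and Cdk1 (0.26). The proliferation marker Mki67 did not pass the test (-0.17, limma adjusted p = 0.33). With a replicate block, and within set A alone, 2 of these 9 rose. The lists share 8 genes, such as Ccna2 and Mybl2, so their counts are not independent.

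**Figure D4:**
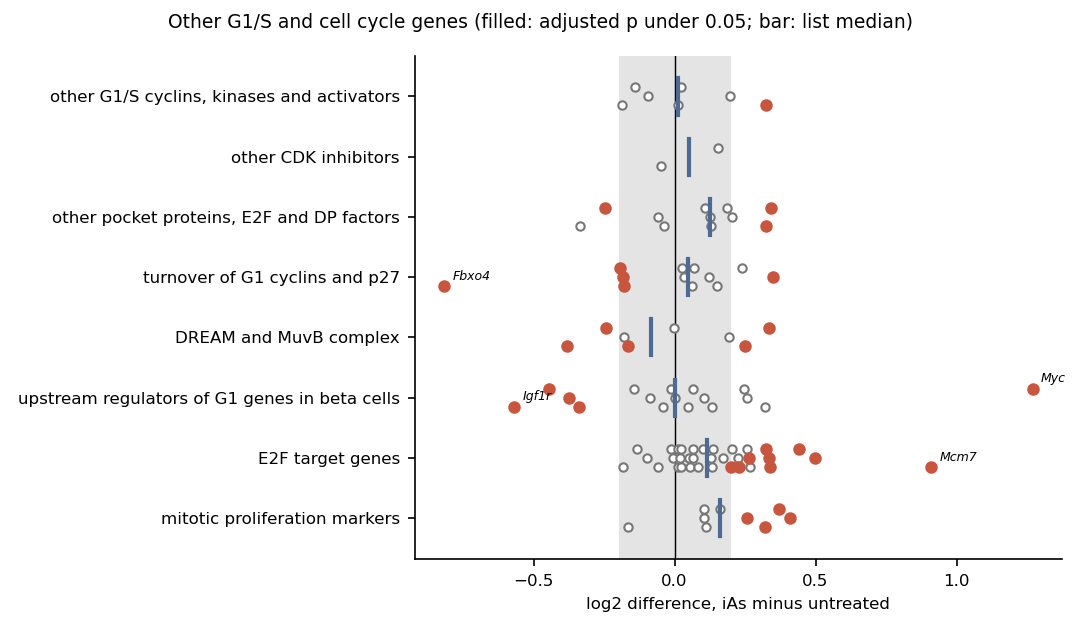
Log2 differences (horizontal axis) of the tested genes in 8 lists around the G1/S switch, filled where limma's adjusted p was under 0.05, with a blue bar at each list's median and the 25th to 75th percentile of all genes in grey. Myc and Mcm7 lie furthest to the right and Fbxo4 furthest to the left.

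For the 3 genes with the smallest adjusted p, the genes with the most similar deviations from the group means over the 9 libraries were picked from 11475. Pearson's r, used as a measure of likeness only, was 0.97 for Ccne1 with Phf19, 0.96 with Thap2 and 0.95 with Mastl. For Ccnd2 it was 0.98 with Cc2d1b, 0.98 with Nr4a1 and 0.98 with Hnrnpu, and for E2f1 0.97 with Pcna, 0.97 with Erh and 0.97 with Suco. The highest of so many values over 9 libraries, some of which share a code ending, is large by selection.

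Markers of other cell types moved with the groups in part. Of 7 acinar and duct markers 1 was tested, Sox9, which rose (log2 difference 2.40). Its mean was 84.5 normalized counts in untreated and 445 in iAs libraries. The summed level of the matched markers was 61.4 to 112 normalized counts in untreated and 353 to 527 in iAs libraries, most of it Sox9. Krt19, below the filter, went the other way, with means of 6.60 and 3.42. Cftr was at 0 in 8 of 9 libraries, and Cpa1, Prss1 and Cela1 were at 0 in all. The 5 fibroblast markers summed to 327 to 426 and 193 to 325, with Dcn at 0, and 1 of 2 tested fell. It was Col1a1, a low gene with means of 19.5 and 5.33 normalized counts (limma adjusted p = 0.044). Pdgfra, with means of 336 and 267, was not called (limma adjusted p = 0.12). The endothelial markers summed to 106 to 187 and 142 to 256, and 0 of 2 tested were called. The immune markers summed to 23.2 to 37.5 and 33.6 to 70.2, with Ptprc at 0, and 1 of 1 tested rose. This was Cd68, with means of 23.3 and 44.1 normalized counts, just under the threshold (limma adjusted p = 0.04997). Among other islet cell markers 1 of 1 tested fell, and the sums were 80254 to 133470 and 52201 to 81094. Hepatocyte markers summed to 839 to 1254 and 408 to 647, and 1 of 3 tested fell. The part of these markers in the G1 results was not tested, and in bulk libraries fewer cells and less RNA per cell cannot be told apart.

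**Figure D5:**
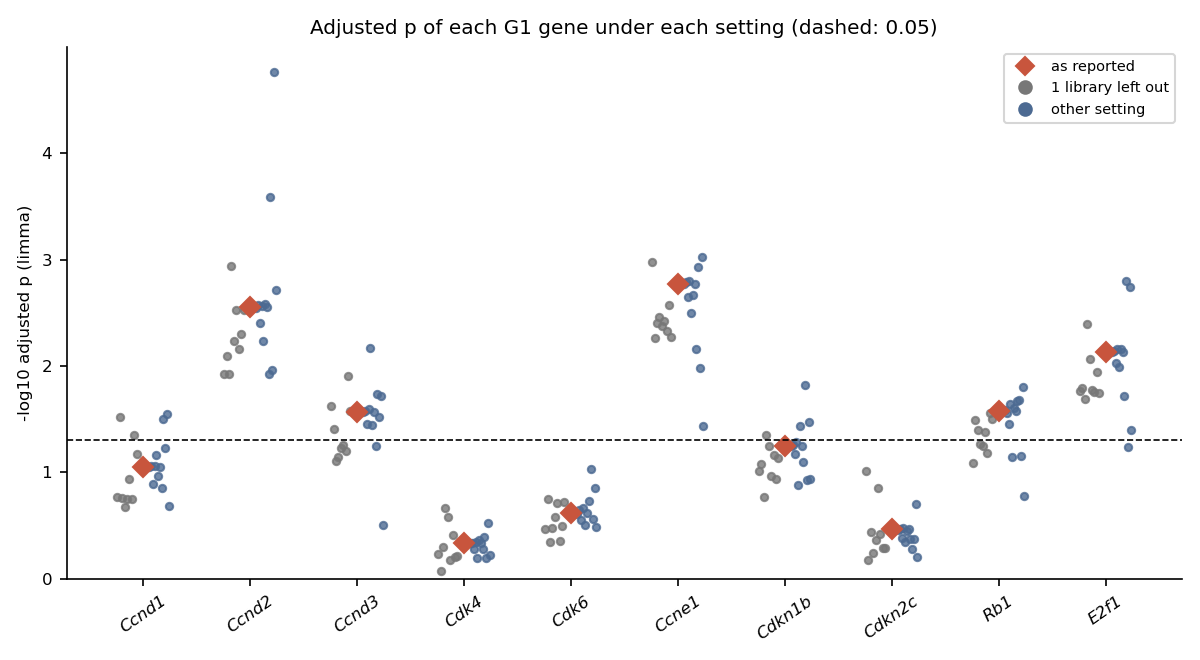
Negative log10 of limma's adjusted p (vertical axis) for each of the 10 genes as reported (red), with 1 library left out (grey) and under the other settings (blue), with the threshold of 0.05 dashed. Ccnd2 and Ccne1 stay above the line in each setting, E2f1 in all but 1, and Ccnd3 and Rb1 fall on both sides.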

How the data were processed

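The mRNA table was used, with 4 untreated and 5 iAs libraries prepared with a Kapa mRNA kit, per the labels' protocols. Its values are a signal that the authors deposited, named in the labels as DESeq2-normalized counts. Tools that the authors name in their processing notes are STAR, Salmon and DESeq2, with the build rn6, without versions or roles. Strand handling in the counting is not given in the sources used here, so reads of overlapping antisense genes cannot be told apart. In each library low values cluster at whole multiples of 0.811 to 1.20 normalized counts, but only 46.1% to 72.2% of them lie within 0.01 of a whole number of such steps, so reads were not recovered and no count test was run. The 12 small RNA libraries were not used.

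Each column was assigned through the code its sample's description holds. For 4 libraries the title carries another code, of a library in the same group. Their replicate numbers rest on this choice, and so do the replicate block and the correlations of same-numbered libraries. Testing used limma-trend (limma 3.58.1, R 4.3.3, no block) on log2(value + 1). Genes entered at a mean of 10 or more normalized counts, with Benjamini-Hochberg adjustment over all 14410 genes and a threshold of 0.05. Differences on this scale understate the change of low genes. The fit was checked on simulated data with independent noise in each library, no lanes or code-ending sets, and few changed genes. Since these data differ from that setting, the check does not show whether the calls here hold. The 95% intervals come from the same fit and are not adjusted. Scalings, pseudocounts, filters, blocks, weights and left-out libraries were tried as 21 other settings.

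The 10 genes and the lists were chosen with earlier results of these data known. Named were the 10 genes, the 2 genes with the smallest adjusted p per list, fixed partner genes and label-check genes, and 3 genes of most similar pattern for each of 3 members, among genes with a symbol and a mean of at least 50. Btrc, Ambra1, Skp1, Rbbp4, Mybl2, Dyrk1a, Igf1r, Stat5a, Prlr, Ccnb1, Cdk1, Cdkn2b, Mcm2, Mcm3, Mcm4, Mcm5, Mcm6, Sox9, Mtap and Dmrta1 were named after their values were seen. The same holds for Gclm, Nqo1, Txnrd1, Cd68, Col1a1 and Pdgfra. Cdk3, Cdkn2d and Ccnb2 were not matched by symbol and are not analysed here.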

Additional observations from a re-analysis of the deposited data

Results flagged for a closer look

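In 12 of 120 groups of named genes 1 library lay far from the others by Dixon's test at the 95% level, where chance flags about 1 in 20. Ccnd2 was the 1 G1 gene among them, with untreated replicate 4 at 2257 normalized counts against 1739 to 1823 in the other untreated libraries. Untreated replicate 4 was also high for Myc (5384 against 2738 to 3037) and Men1 (7304 against 6572 to 6667), and untreated replicate 3 for Dyrk1a (3859 against 3481 to 3528). Untreated replicate 2 was low for Lin37 (1193 against 1347 to 1363), Pola1 (2838 against 3010 to 3039) and Rbbp4 (5328 against 6486 to 6675). In the iAs group replicate 2 was low for Cdk2 (1675 against 2144 to 2311) and high for Irs2 (19660 against 15471 to 16681) and Nr4a1 (6708 against 1950 to 3150). Replicate 4 was low for Ezh2 (3299 against 3593 to 3706), and replicate 5 high for Thap2 (130 against 107 to 112).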

How the results depend on the processing

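All 10 G1 genes kept their direction in every setting that gave them a value, and Cdk6 had none under a filter at a mean of 50. The calls of Ccnd2 and Ccne1 held in 21 of 21 settings and that of E2f1 in 20. Deviations of same-numbered libraries correlated between -0.04 and 0.03, which cannot decide whether the numbers pair cultures. For untreated and iAs libraries with the same code ending the correlations ran from -0.06 to 0.17. The labels do not say that the numbers pair cultures, and the replicate block gives iAs replicate 5 a block of its own. With the replicate block 2761 genes were called in place of 4321 (1351 higher and 1410 lower), 3 of the 10 G1 genes, 2 of 12 turnover genes, 3 of 8 DREAM and MuvB genes and 2 of 9 mitotic genes. The code ending as a block raised the calls to 5278 genes and 7 of the 10 G1 genes, and array weights to 5360 and 7. Within the most common code ending alone the counts were 3 of the 10 G1 genes, 2 DREAM and MuvB genes, 3 upstream regulators, 4 E2F targets and 2 mitotic genes. Without a trend 3 DREAM and MuvB genes were called, and with equal totals or the code ending as a block 2 other cyclin and kinase genes. Leaving out 1 library gave 3423 to 4068 called genes, 3 to 6 of the G1 genes, 1 to 2 other cyclin and kinase genes, 3 to 5 DREAM and MuvB genes and 6 to 11 E2F targets. The causes of these shifts were not tested. Cdk6 was read at about 4.00 to 35.1 reads per library, and whether depth or the spread between libraries limits its test was not tested.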

Other observations

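Cdkn2a and Cdkn2b, which encode inhibitors of the D-type cyclin kinases, were listed at 0 in all 9 libraries, while the nearest named genes on either side of them in the RefSeq annotation (GRCr8 gene order) were detected. Mtap, the methylthioadenosine phosphorylase gene on one side, had 748 ± 45.9 normalized counts (SD, n = 4) in untreated and 983 ± 81.6 (SD, n = 5) in iAs libraries (log2 difference 0.39, limma adjusted p = 0.0035). Dmrta1, on the other side, had 223 ± 78.9 (SD, n = 4) and 230 ± 63.2 (SD, n = 5) normalized counts (limma adjusted p = 0.86).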
